A study of Mus musculus with 12 samples.

Results

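The clustered histone genes are the mouse genes that encode the linker histone H1 and the core histones H2A, H2B, H3 and H4 from the Hist1 to Hist4 gene clusters. They were taken by name, as every gene whose symbol begins with Hist, a cluster number from 1 to 4, the letter h and a histone number, without the 1 name that marks a pseudogene. This rule gave 69 of the 55335 genes in the count tables, and it used no measured value. Of the 69, 6 encode H1, 20 H2A, 18 H2B, 12 H3 and 13 H4. The Hist1 cluster on chromosome 13 holds 56 of them, Hist2 on chromosome 3 holds 10, Hist3 on chromosome 11 holds 2 and Hist4 on chromosome 6 holds 1.

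The RNA came from muscle stem cells (MuSCs), which reside in skeletal muscle, sorted by flow cytometry from the hindlimbs of Pax7-ZsGreen transgenic mice aged 3 to 6 months. The 12 libraries form 4 groups of 3. F cells were sorted straight into TRIzol, a lysis reagent. 2d-U and 5d-U cells grew uncompressed for 2 and 5 days on plastic coated with Matrigel and fibronectin, in a growth medium with horse serum, fetal bovine serum, chicken embryo extract and FGF. The cells named 2+3d-C grew uncompressed for 2 days and then for 3 days beneath a PDMS film whose short pillars set the height left to the cells, so their time in culture equals that of 5d-U cells. All groups carry the Pax7-ZsGreen reporter, and cells with a high green signal were kept in the sort. Cultured cells were lysed in the well after the medium and, for 2+3d-C cells, the device had been removed. The sources used here do not say which libraries share animals or culture batches, so each p-value measures the spread between these samples, which may be technical.

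Core histones form the protein spool of the nucleosome, with H2A, H2B, H3 and H4 in pairs, and H1 binds the linker DNA between nucleosomes. Most clustered histone genes are replication-dependent: they are transcribed mainly in S phase, when new DNA must be packaged, and their mRNA is rapidly lost when DNA synthesis ends. Their transcripts usually end just after a short 3′ stem-loop that binds the protein Slbp, without a poly(A) tail, although some of these genes also give polyadenylated transcripts in cells that are not dividing. The cDNA here was primed on poly(A), so reads of these genes come mainly from the polyadenylated or internally primed part of their mRNA, and the size of that part was not measured. In bulk libraries, fewer cycling cells and less histone mRNA per cell cannot be told apart.

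The stem-loop, read as 6 bases, a loop of 4 and the reverse complement of the 6, was searched in the annotated transcripts (GENCODE vM21, GRCm38) and was found in 46 of the 69 genes, in 8 different sequences. Of these, 4 are shown because they mark where the replication-dependent form of the mRNA ends, and the capitals mark the 2 arms of the stem. The first was present in 26 genes of all classes except H4, the second in 7 H4 genes, the third in 6 genes of the H1, H2B and H3 classes and the fourth in 2 H4 genes. A further sequence was also present in 2 H4 genes, and of this pair the one of Hist1h4i and Hist2h4, both described below, is given. The coordinates are those of the gene named on the line.
Hist1h1c, chr13:23739512-23739527, plus strand: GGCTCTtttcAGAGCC
Hist1h4d, chr13:23581950-23581965, plus strand: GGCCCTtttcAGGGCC
Hist1h3c, chr13:23745047-23745062, minus strand: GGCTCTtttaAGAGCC
Hist1h4i, chr13:22040966-22040981, minus strand: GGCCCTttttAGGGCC

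In 23 of the 46 genes the annotated transcript ran on for over 100 bases past the stem-loop. In 17 of the 46 the part past the stem-loop, of any length, held the polyadenylation hexamer AATAAA or ATTAAA. Hist1h1d was the longest, with a single exon of 7425 bases and 4884 of them after the stem-loop. Across all 69 genes the median exon length was 534 bases, and 63 genes had a single exon.

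Promoters from RefSeq (GRCm38.p6, 250 bases before to 50 after the start) matched 61 of the 69 genes. The CCAAT box (letters CCAAT on either strand) was present in 52 of the 61, against 37.4% of 32851 promoters of all genes, and it was in every promoter of the H1, H2A, H2B and H3 genes matched and in 3 of 12 H4 promoters. The letters of the TATA box (TATAAA on either strand, at any distance from the start) were present in 34 of the 61, against 13.6% of all promoters. The octamer bound by Oct1 (letters ATTTGCAT on either strand) was present in 7 of 18 H2A and 6 of 16 H2B promoters and in none of the 5 H1, 10 H3 and 12 H4 promoters, against 1.74% of all promoters. The 3 kinds of motif shared no base with each other in the 61 promoters. Some H2A and H2B genes lie head to head, as Hist1h2ae (from 23571220, minus strand) and Hist1h2bg (from 23571396, plus strand). The bases searched for such a pair can overlap, so 1 motif may have counted for both genes. Shown are the 250 bases before the start of 4 genes of different classes that were lower in 2+3d-C cells than in 5d-U cells, with the 3 motifs in capitals on whichever strand they lie.
Hist1h1b, chr13:21780626-21780875, minus strand: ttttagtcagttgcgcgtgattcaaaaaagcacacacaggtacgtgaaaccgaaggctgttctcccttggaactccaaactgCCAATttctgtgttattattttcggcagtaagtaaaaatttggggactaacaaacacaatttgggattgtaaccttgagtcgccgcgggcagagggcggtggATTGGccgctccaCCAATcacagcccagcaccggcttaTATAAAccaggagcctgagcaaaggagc
Hist1h2ae, chr13:23571221-23571470, minus strand: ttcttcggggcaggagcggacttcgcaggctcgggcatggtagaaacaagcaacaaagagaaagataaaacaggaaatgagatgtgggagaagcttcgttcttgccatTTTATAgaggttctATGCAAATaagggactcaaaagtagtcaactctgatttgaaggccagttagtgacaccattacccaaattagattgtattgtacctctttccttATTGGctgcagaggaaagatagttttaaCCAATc
Hist1h3d, chr13:23575513-23575762, plus strand: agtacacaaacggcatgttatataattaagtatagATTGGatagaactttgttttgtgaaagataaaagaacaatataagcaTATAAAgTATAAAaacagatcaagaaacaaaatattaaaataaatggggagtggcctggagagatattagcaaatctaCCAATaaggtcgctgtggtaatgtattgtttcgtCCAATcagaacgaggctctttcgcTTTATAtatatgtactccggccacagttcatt
Hist1h4i, chr13:22041363-22041612, minus strand: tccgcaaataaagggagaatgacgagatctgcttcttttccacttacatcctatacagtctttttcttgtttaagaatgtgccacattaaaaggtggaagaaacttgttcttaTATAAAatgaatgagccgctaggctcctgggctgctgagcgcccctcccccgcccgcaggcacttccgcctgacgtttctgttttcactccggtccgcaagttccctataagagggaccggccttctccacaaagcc

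Libraries held 12540745 to 62424851 reads on genes, of which 300 to 6491 fell on the clustered histone genes. Reads that align to several genes were not counted, and the histone genes resemble each other. Of the 75-base stretches of their transcripts, a median of 54.3% per gene occurred in no other gene, with a class median of 99.3% in H1, 75.4% in H4, 57.9% in H2B, 41.0% in H3 and 28.5% in H2A. No read was counted in any library for 6 genes. Of these, 5, Hist2h2aa1, Hist2h2aa2, Hist2h3c1, Hist2h3b and Hist2h2bb, have no stretch of their own, and the other is Hist1h4m. Counting ignored strand and left out reads in the exons that 26 of the 69 genes share with another annotated gene. The same counting was used for all libraries.

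Some libraries stood apart. Reads on 2089 autosomal genes of families that are silent in muscle (olfactory receptors and the like) reached 5.03 and 7.13 per kilobase of exon in F replicates 4 and 5 and 3.81 in 5d-U replicate 1, and 0.00937 to 0.635 in the other 9 libraries. At those densities 20.0%, 22.8% and 11.7% of the histone reads of these 3 libraries would be of the same kind, and at most 1.23% in any other library. Their part in the results was not tested beyond the fits without them given below. Markers of other cell types also moved with the groups. The 4 fibroadipogenic markers summed to 1973 to 5556 CPM (counts scaled to a common library size) in F libraries, 0.704 to 11.4 in 2d-U libraries, 8.64 to 53.9 in 5d-U libraries and 221 to 595 in 2+3d-C libraries, and the 4 endothelial markers to 689 to 976, 2.72 to 5.12, 1.39 to 11.6 and 40.3 to 163 in the same order. The 3 erythroid markers summed to 129 to 580 CPM in F libraries and 21.0 to 283 in 2+3d-C libraries and to at most 0.293 in the others, and the 3 glial markers to 182 to 249 in F libraries, 71.7 to 131 in 2+3d-C libraries and at most 7.34 in the others. The 5 immune markers summed to 107 to 233 CPM in F libraries and at most 20.9 elsewhere, and the pan-leukocyte marker Ptprc had no read in the 2d-U and 2+3d-C libraries. In 2+3d-C libraries Cd3e also had no read, while Cd68 reached 5.35, 5.91 and 0.274 CPM, and Csf1r and Cd79a at most 0.899 and 0.482. The 4 smooth muscle and pericyte markers summed to 661 to 895 in F libraries, 62.6 to 84.7 in 2d-U libraries, 49.97 to 722 in 5d-U libraries and 240 to 392 in 2+3d-C libraries, and the 4 myofiber markers to 27.6 to 2442, 49.1 to 87.1, 158 to 2439 and 59.8 to 176. All 9 MuSC markers were detected in every group, though Calcr had no read in 2d-U replicates 2 and 3 and 5d-U replicate 2. The 9 summed to 2317 to 6442 CPM in F libraries, 2418 to 2890 in 2d-U libraries, 2401 to 3716 in 5d-U libraries and 14083 to 15216 in 2+3d-C libraries. In 2+3d-C libraries Myod1 gave 4153 to 8449 CPM of the sum and Sdc4 3171 to 6298. The part of these cell types in the histone values was not tested.

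The summed level of the 69 genes was lowest in 2+3d-C cells. On the scale of CPM with TMM scaling, used for all levels unless RPKM (the same CPM per kilobase of exon) is named, the 3 2+3d-C libraries reached 19.0, 36.2 and 19.1. The 5d-U libraries reached 95.1, 90.01 and 317, the 2d-U libraries 39.8, 38.8 and 34.1 and the F libraries 103, 54.0 and 53.0. Every 5d-U library lay above every 2d-U and 2+3d-C library, whereas 1 of the 3 2+3d-C libraries, replicate 5, lay within the 2d-U range. That position depends on the scaling, with TMM factors of 0.661 in replicate 5 and 1.18 to 1.26 in 2d-U libraries. Without TMM replicate 5, at 300 of 12540745 reads, lay below every 2d-U library (2111 of 45003574, 991 of 20329459 and 1544 of 36266156). The means were 24.8 ± 9.89 in 2+3d-C libraries, 167 ± 130 in 5d-U libraries, 37.6 ± 3.02 in 2d-U libraries and 69.9 ± 28.4 in F cells (SD, n = 3 each). 5d-U replicate 6 alone set the width of its group, and without it the 5d-U mean was 92.5.

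**Figure D1:**
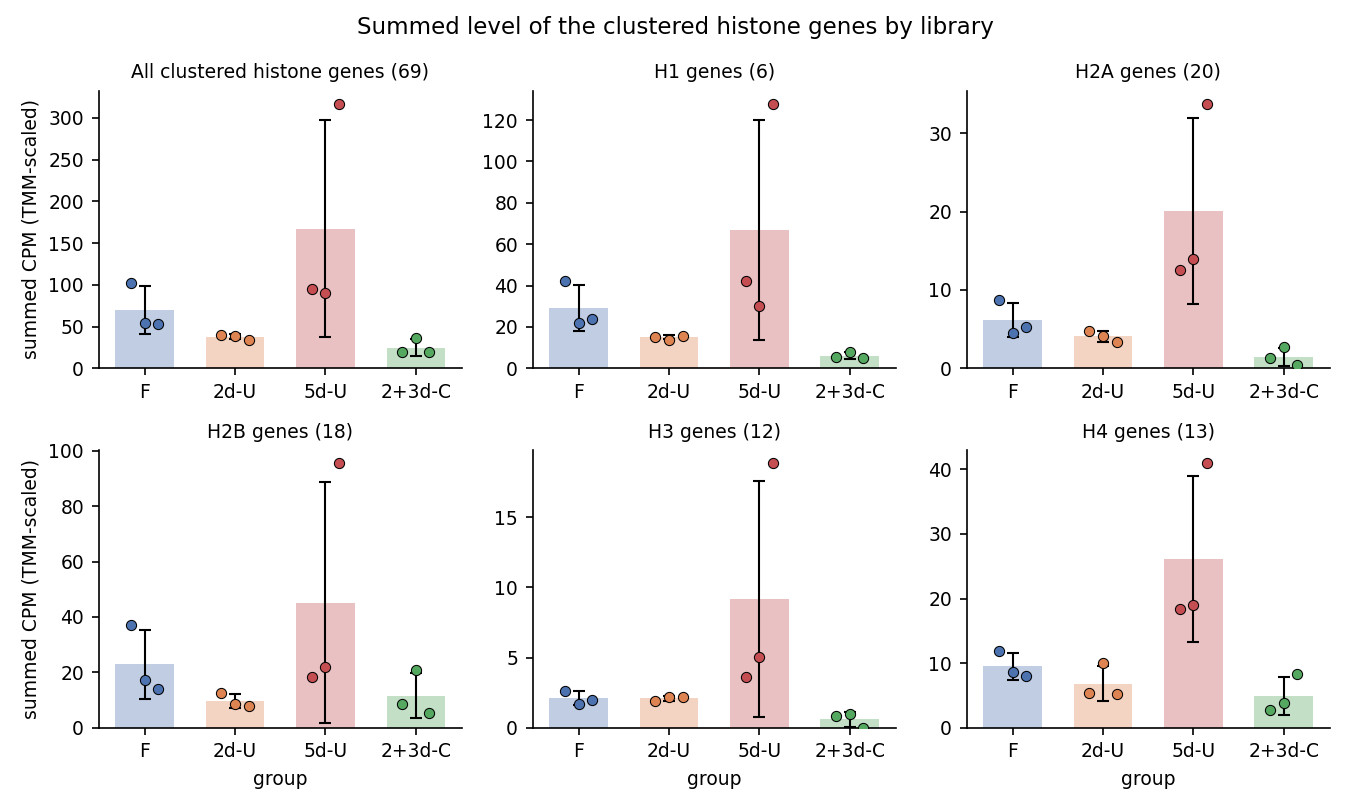
Summed CPM of the clustered histone genes (vertical axis) in the 4 groups (horizontal axis), for all 69 genes and for each histone class. Points are libraries, bars are means and whiskers are SD (n = 3, cut at 0). In every panel 5d-U replicate 6 is the highest point, and in the panel of all genes the other 2 5d-U libraries lie at 95.1 and 90.01, above the 2d-U and 2+3d-C points.

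The classes did not contribute evenly. In 5d-U cells H1 genes made up 66.8 ± 53.3 CPM, H2B genes 45.2 ± 43.6, H4 genes 26.1 ± 12.8, H2A genes 20.1 ± 11.9 and H3 genes 9.17 ± 8.41 (SD, n = 3). In 2+3d-C cells the same sums were 6.13 ± 1.62, 11.6 ± 8.07, 4.98 ± 2.92, 1.45 ± 1.13 and 0.609 ± 0.530. The sum of H3 genes was 0 in 2+3d-C replicate 10, where the 12 H3 genes had no read. For H1, H2A, H3 and H4 the 3 2+3d-C libraries lay below all 5d-U libraries, while for H2B the 20.7 CPM of 2+3d-C replicate 5 lay between the 18.2 and 21.9 of 5d-U replicates 1 and 2. Within a library 2 genes, Hist1h1c and Hist1h2bc, supplied a large share of the histone reads, at 48.3 to 70.8% in F libraries, 32.6 to 48.8% in 2d-U libraries, 26.7 to 41.5% in 5d-U libraries and 52.3 to 56.7% in 2+3d-C libraries. At least 1 read was counted for 28 to 53 of the 69 genes in F libraries, 40 to 45 in 2d-U libraries, 48 to 52 in 5d-U libraries and 9 to 25 in 2+3d-C libraries.

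For the tests, 26 of the 69 genes passed the filter on low counts with 22635 genes tested in all, namely 5 of the 6 H1 genes, 5 of 20 H2A, 6 of 18 H2B, 5 of 12 H3 and 5 of 13 H4. A gene could pass through a single group in which it was high, so the counts below describe these 26 genes and not the family, and they are given beside the share of all 22635 tested genes called in the same direction. The threshold for a call was an adjusted p of 0.05 (Benjamini-Hochberg, edgeR's quasi-likelihood test). The 43 genes not tested summed to 1.03, 7.6 and 0.867 CPM in the 2+3d-C libraries and 2.78, 4.32 and 10.7 in the 5d-U libraries. Of the 7.6 CPM in 2+3d-C replicate 5, most came from Hist1h2bb with 57 reads, a gene with no read in the other 2 2+3d-C libraries and named here after its values were seen.

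The comparison of 2+3d-C with 5d-U cells asks what compression did at equal time in culture. Of the 26 tested histone genes, 14 were lower in 2+3d-C cells and 0 were higher, against 13.4% lower and 9.14% higher of all tested genes. The median log2 fold change was -4.49 over the 26 genes and -1.05 over all tested genes. Because 8 of the 26 had no read in any 2+3d-C library, their fitted changes are not measured sizes, and with these 8 set to the bound that 3 reads per library allow the median was -2.73. In 19 of the 26 every 2+3d-C library lay below every 5d-U library, against 29.7% of all tested genes. At an unadjusted p below 0.05, 19 were lower and 0 higher, against 30.1% lower and 13.4% higher of all tested genes. DESeq2, which gave an adjusted p to 21 of the 26, called 16 lower and 0 higher, against 21.6% lower and 17.1% higher of the 18796 genes it tested. The count was 6 without 5d-U replicate 6, 8 without 2+3d-C replicate 4, 8 without 2+3d-C replicate 10 and 9 without F replicate 4, and 11 without the 3 libraries rich in reads on silent families. Over all 22635 tested genes the number lower was 1648, 2461, 2255, 2536 and 2821 in the same order, against 3042 in the main fit. Below, a call is given with the number of up to 20 alternatives that kept it, which are other settings of the fit and each of the 12 libraries left out.

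**Figure D2:**
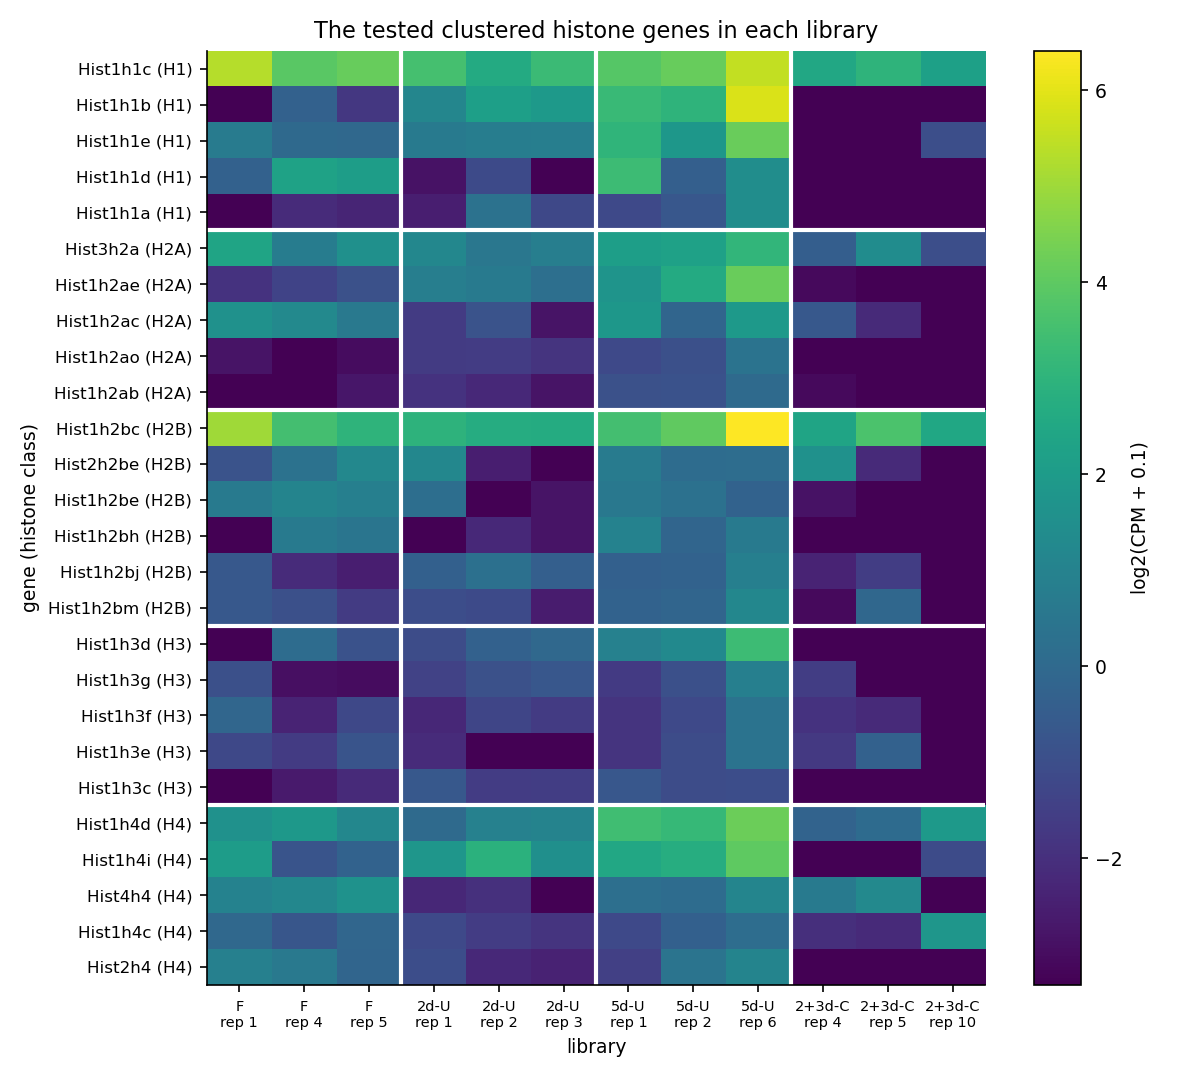
Level of each of the 26 tested genes (rows, grouped by histone class) in each of the 12 libraries (columns), as log2(CPM + 0.1) in colour. The darkest cells mark a level of 0, which 10, 14 and 19 genes had in the 2+3d-C libraries and at most 6 in any other library. Hist1h1c and Hist1h2bc, at 4.47 to 46.3 and 5.02 to 85.1 CPM, are bright in every column.

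H1 genes encode the linker histones, of which Hist1h1b (H1.5) is found mainly in dividing cells and Hist1h1c (H1.2) in most cells. All 5 tested H1 genes were lower in 2+3d-C cells than in 5d-U cells. Hist1h1b (ENSMUSG00000058773.2, chr13:21779883-21780625 of mm10, 1 exon of 743 bases) had 0 reads in each 2+3d-C library, while the 5d-U libraries reached 9.60, 7.91 and 58.3 CPM. The 2d-U libraries reached 2.11, 4.46 and 3.78 CPM and the F libraries 0, 0.706 and 0.202. No 2+3d-C library overlapped a 5d-U or 2d-U library, and F replicate 1 was at 0 as the 2+3d-C libraries were. With a floor of 3 reads per library, Hist1h1b was at least 137-fold lower in 2+3d-C cells than in 5d-U cells (edgeR adjusted p = 0.00108) and by comparison with 2d-U cells at least 18.7-fold lower (edgeR adjusted p = 0.00373). The bound against 5d-U cells was 47.3-fold without 5d-U replicate 6. Without 2+3d-C replicate 5, the library with the highest floor, this and every other bound given for 2+3d-C cells was 1.92 times as large. All of the 75-base stretches of Hist1h1b were unique, and it was called against 5d-U cells in 20 of 20 alternatives.

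Hist1h1c (chr13:23738808-23740367) was detected in every library. Its levels were 5.56, 7.96 and 4.47 CPM in 2+3d-C, 14.2, 17.5 and 46.3 in 5d-U libraries, 11.7, 6.14 and 9.86 in 2d-U libraries and 39.9, 15.1 and 17.7 in F libraries. It stood lower in 2+3d-C cells than in 5d-U cells by a log2 fold change of -2.12 (SE 0.64, edgeR adjusted p = 0.0284), and its value of -0.63 (SE 0.62, edgeR adjusted p = 0.524) against 2d-U cells did not pass the test. The call against 5d-U cells was kept in 14 of 20 alternatives, and without 5d-U replicate 6 the value was -1.35 and not called.

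Hist1h1e (H1.4) had 0, 0 and 0.411 CPM in 2+3d-C libraries and 8.16, 3.41 and 17.9 in 5d-U libraries, with no overlap. Its log2 fold change was -6.07 (SE 1.5, edgeR adjusted p = 0.0101), called in 19 of 20 alternatives. The value was -5.27 and not called without 5d-U replicate 6, and without 2+3d-C replicate 10, which held all of its 2+3d-C reads, the gene was at 0. Hist1h1d (H1.3), with 0 reads in 2+3d-C cells, reached 9.99, 0.662 and 2.64 CPM in 5d-U libraries, 0.0377, 0.352 and 0 in 2d-U libraries and 0.706, 4.84 and 4.22 in F libraries. The highest of these values stood in 5d-U replicate 1 and F replicates 4 and 5, the libraries rich in reads on silent families, where the long exon of Hist1h1d would collect 28.3, 37.3 and 53.0 of its 230, 151 and 167 reads at the density of those families. It was at least 23.9-fold lower in 2+3d-C cells than in 5d-U cells (edgeR adjusted p = 0.00997), a call kept in 20 of 20 alternatives, and without 5d-U replicate 1 the bound was 8.92-fold. The fifth gene, Hist1h1a (H1.1), falls outside the rule for named genes and is given because it completes the class: 0 reads in 2+3d-C and 0.347, 0.522 and 2.64 CPM in 5d-U libraries, at least 6.32-fold lower (edgeR adjusted p = 0.0284). Without 5d-U replicate 6 its bound was 2.35-fold, and the call was kept in 15 of 19 alternatives.

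H2A genes encode a core histone whose clustered copies are nearly identical, and 2 of the 5 tested were lower in 2+3d-C cells than in 5d-U cells. Hist1h2ae (chr13:23570517-23571220) had 0.0187, 0 and 0 CPM in 2+3d-C libraries, a single read in all. It reached 3.17, 6.17 and 17.9 CPM in 5d-U libraries, 1.68, 1.49 and 1.08 in 2d-U libraries and 0.166, 0.289 and 0.429 in F libraries, so the 4 groups did not overlap. Reads pooled over the 3 libraries of a group and divided by their summed effective library sizes gave, from 1 read against 617, a ratio of 2+3d-C to 5d-U cells of 0.00140 (95% counting interval 3.54e-05 to 0.00783, edgeR adjusted p = 0.000504). Against 2d-U cells, from 1 read to 176, the same pooled ratio was 0.00841 (interval 0.000212 to 0.0475, edgeR adjusted p = 0.00284). The call against 5d-U cells was kept in 19 of 20 alternatives.

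Hist1h2ao had 0 reads in 2+3d-C cells and 0.347, 0.418 and 1.22 CPM in 5d-U libraries, at least 3.58-fold lower (edgeR adjusted p = 0.0309). The call was kept in 9 of 18 alternatives, and without 5d-U replicate 6 the bound was 2.07-fold. Only 6.90% of its 75-base stretches were unique, most of the rest being shared with Hist1h2ap. Reads that align to several genes were not counted, so its level may be too low in every library. Hist1h2ac and Hist3h2a gave -3.48 (SE 1.46, edgeR adjusted p = 0.0913) and -2.30 (SE 0.98, edgeR adjusted p = 0.0933). Hist1h2ab gave 1 read in 2+3d-C against 42 in 5d-U cells, a pooled ratio of 0.0206 (95% counting interval 0.000509 to 0.121), and an edgeR adjusted p of 0.0616. In these 3 genes every 2+3d-C library lay below every 5d-U library although none passed the test.

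Of the H2B genes, 2 of 6 tested were lower in 2+3d-C cells than in 5d-U cells. Hist1h2bc (chr13:23684199-23692908, 2 exons) reached 5.02, 12.5 and 5.52 CPM in 2+3d-C, 11.2, 16.3 and 85.1 in 5d-U libraries, 7.77, 6.49 and 6.30 in 2d-U libraries and 32.8, 11.2 and 7.88 in F libraries. The 2+3d-C and 5d-U libraries overlapped, and the log2 fold change of -2.29 (SE 0.81, edgeR adjusted p = 0.0542) did not pass the test. Hist1h2bh had 0 reads in 2+3d-C cells and 1.87, 0.801 and 1.51 CPM in 5d-U libraries, at least 7.54-fold lower (edgeR adjusted p = 0.0324), a call kept in 12 of 19 alternatives. Hist1h2be had 2 reads in 2+3d-C against 80 in 5d-U cells, a pooled ratio of 0.0216 (95% counting interval 0.00257 to 0.0806, edgeR adjusted p = 0.0481). That call was kept in 7 of 19 alternatives and lost without any 1 of the 5d-U or 2+3d-C libraries.

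Hist1h2bj gave -3.36 (SE 1.57, edgeR adjusted p = 0.115) in the same comparison. Hist2h2be differed from library to library within groups, with 158, 1 and 0 reads in 2+3d-C, 116, 2 and 0 in 2d-U libraries and 36, 28 and 21 in 5d-U libraries. Its log2 fold change was -0.18 (SE 1.82, edgeR adjusted p = 0.949), and all of its 75-base stretches were unique.

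H3 genes had the lowest summed CPM of the classes in every group, a sum not scaled for gene number, length or the share of unique stretches. Of the 5 tested, 2 were lower in 2+3d-C cells than in 5d-U cells. Hist1h3d (chr13:23575763-23577011) had 0 reads in 2+3d-C cells and reached 1.82, 2.37 and 10.1 CPM in 5d-U libraries, 0.377, 0.704 and 0.885 in 2d-U libraries and 0, 0.994 and 0.455 in F libraries. It was at least 25.8-fold lower in 2+3d-C cells than in 5d-U cells (edgeR adjusted p = 0.00700) and by comparison with 2d-U cells at least 3.54-fold lower (edgeR adjusted p = 0.0256). The call against 5d-U cells was kept in 20 of 20 alternatives, with a bound of 11.3-fold without 5d-U replicate 6. Hist1h3c had 0 reads in 2+3d-C cells and 0.521, 0.383 and 0.391 CPM in 5d-U libraries, at least 2.33-fold lower (edgeR adjusted p = 0.0446), a call kept in 2 of 18 alternatives. Hist1h3g gave -3.02 (SE 1.80, edgeR adjusted p = 0.195), Hist1h3f -2.52 (SE 1.65, edgeR adjusted p = 0.236) and Hist1h3e -1.0 (SE 1.82, edgeR adjusted p = 0.685).

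H4 genes encode the most conserved core histone from many copies, and 3 of the 5 tested were lower in 2+3d-C cells than in 5d-U cells. Hist1h4i (chr13:22040636-22041362) had 0, 0 and 0.365 CPM in 2+3d-C, 5.64, 6.55 and 15.7 in 5d-U libraries, 3.36, 7.35 and 2.79 in 2d-U libraries and 4.11, 0.481 and 0.733 in F libraries. Every 2+3d-C library lay below all 9 others, and the log2 fold change was -6.15 (SE 1.57, edgeR adjusted p = 0.0119) against 5d-U and -5.11 (SE 1.5, edgeR adjusted p = 0.0233) against 2d-U cells. The call against 5d-U cells was kept in 19 of 20 alternatives, and without 2+3d-C replicate 10, the source of its 2+3d-C reads, the gene was at 0. The value was -5.50 without 2+3d-C replicate 4 and -5.52 without 5d-U replicate 6. Hist2h4 (chr3:96261682-96263311) had 0 reads in 2+3d-C cells and 0.261, 1.25 and 2.00 CPM in 5d-U libraries, 0.396, 0.117 and 0.0885 in 2d-U libraries and 1.79, 1.44 and 0.808 in F libraries. It was at least 6.34-fold lower in 2+3d-C cells than in 5d-U cells (edgeR adjusted p = 0.0115) and by comparison with F cells at least 7.28-fold lower (edgeR adjusted p = 0.0328). The call against 5d-U cells was kept in 18 of 19 alternatives, with a bound of 4.10-fold without 5d-U replicate 6.

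Hist1h4d had 0.768, 0.965 and 3.74 CPM in 2+3d-C and 10.6, 9.06 and 18.4 in 5d-U libraries, a log2 fold change of -2.79 (SE 0.87, edgeR adjusted p = 0.0331). That call was kept in 11 of 20 alternatives. It was lost without F replicate 4, 5d-U replicate 1 or 6 or 2+3d-C replicate 4 or 5, and the value was -3.87 without 2+3d-C replicate 10. Hist4h4 did not follow, with 1.48, 2.29 and 0 CPM in 2+3d-C and 1.09, 0.975 and 2.05 in 5d-U libraries and a log2 fold change of -0.14 (SE 1.46, edgeR adjusted p = 0.951). Hist1h4c was the 1 tested gene with a fitted value above 0, at 0.81 (SE 1.37, edgeR adjusted p = 0.662), and 73 of its 82 reads in 2+3d-C cells came from replicate 10, without which the value was -2.26. It lies outside the rule for named genes and was added after its values were seen.

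**Figure D3:**
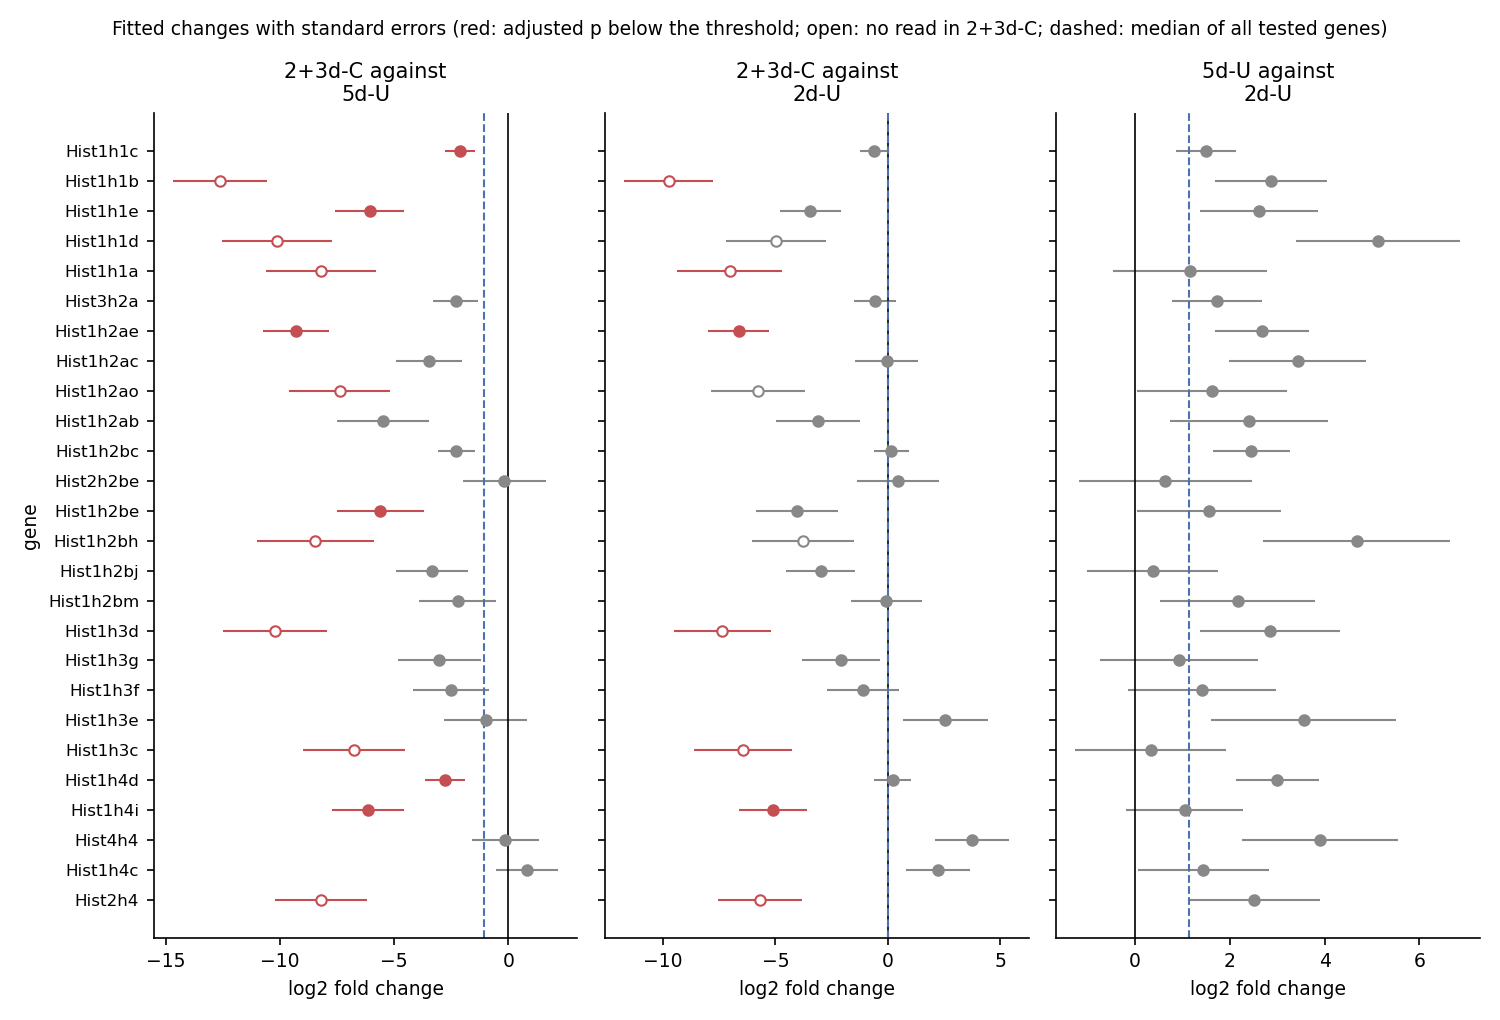
Log2 fold change with its standard error (horizontal axes) for the 26 tested genes (vertical axis) in 2+3d-C against 5d-U, 2+3d-C against 2d-U and 5d-U against 2d-U cells, from left to right. Red marks genes called at an adjusted p below 0.05, open circles genes with no read in 2+3d-C cells, whose fitted size is not a measured one, and the dashed line is the median of all tested genes. The red points lie left of 0, 14 in the first panel, 7 in the second and 0 in the third.

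Compared with 2d-U cells, the state in which compression began, 7 of the 26 tested genes were lower in 2+3d-C cells and 0 were higher, against 8.63% lower and 16.0% higher of all tested genes. The 7 were Hist1h1a, Hist1h1b, Hist1h2ae, Hist1h3c, Hist1h3d, Hist1h4i and Hist2h4, and all 7 were also among the 14 lower than in 5d-U cells, a comparison that shares the 2+3d-C libraries. The median log2 fold change was -3.04 over the 26 genes, or -1.0 with the genes at 0 set to their bound, and 0 over all tested genes. In 12 of the 26 every 2+3d-C library lay below every 2d-U library, against 17.4% of all tested genes. Hist1h2bc at 0.16 (SE 0.77), Hist1h4d at 0.22 (SE 0.82) and Hist1h2ac at -0.05 (SE 1.4) lay near 0, each with an edgeR adjusted p of 1. Hist4h4 was the gene highest above 0 at 3.77 (SE 1.65, edgeR adjusted p = 0.108), and DESeq2 called it higher, as it did 23.1% of the 20102 genes it tested. Leaving out 2d-U replicate 2 or 3 or 2+3d-C replicate 4 or 5 left 3 genes lower, and leaving out F replicate 4 or 5 or 5d-U replicate 2 or 6 left 4. Over all 22635 tested genes 1439 to 2125 were lower in these fits, against 1954 in the main fit.

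Compared with F cells, 2 of the 26 tested genes were lower in 2+3d-C cells, Hist1h1d and Hist2h4, and 0 were higher, against 4.47% lower and 1.94% higher of all tested genes. Hist1h1d was at least 17.6-fold lower (edgeR adjusted p = 0.0356). The median log2 fold change was -2.37 over the 26 genes, -1.73 with the genes at 0 at their bound, and -0.76 over all tested genes. In 8 of the 26 every 2+3d-C library lay below every F library, against 18.3% of all tested genes. The count was 6 without F replicate 1, 1 without 5d-U replicate 6 and 0 without F replicate 4, F replicate 5, 2+3d-C replicate 4 or 2+3d-C replicate 5. Over all 22635 tested genes 2334, 638 and 226 to 1124 were lower in the same order, against 1011 in the main fit. Without 2+3d-C replicate 10 the 2 genes called were Hist1h1e and Hist1h4i in place of Hist1h1d and Hist2h4. Without the libraries rich in silent-family reads 0 were lower, against 265 of all 22635 tested genes. DESeq2 called 11 of 23 lower, against 16.5% of the 20102 genes it tested.

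Between 2 and 5 days without compression the 26 tested genes all had fitted values above 0, as had 17850 of all 22635 tested genes, and none of the 26 passed the test. Of all tested genes 1.87% were called higher and 0.243% lower in 5d-U than in 2d-U cells. The median log2 fold change was 2.29 over the 26 genes and 1.13 over all tested genes. At an unadjusted p below 0.05, 9 of the 26 were higher and 0 lower, against 33.0% higher and 2.06% lower of all tested genes. DESeq2 called 4 of 21 higher, Hist1h1d, Hist1h2ae, Hist1h2bc and Hist1h4d, against 13.2% of the 18796 genes it tested. In 17 of the 26 every 5d-U library lay above every 2d-U library, against 31.7% of all tested genes. Hist1h4d gave the smallest p, with 0.944, 1.84 and 1.95 CPM in 2d-U libraries, all below the 5d-U libraries, and a log2 fold change of 3.01 (SE 0.88, edgeR adjusted p = 0.0763), which passed the test without 2+3d-C replicate 10. Without TMM scaling 24 of the 26 values were above 0, and without 5d-U replicate 6 the number was 23.

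In 2d-U against F cells, before and after the first days of culture, the genes were called in both directions. Of the 26 tested, 1 was higher and 2 were lower in 2d-U cells, against 10.6% higher and 33.3% lower of all tested genes. Hist1h1b was higher by a log2 fold change of 3.48 (SE 1.24, edgeR adjusted p = 0.0404), while Hist1h1d was lower at -4.69 (SE 1.71, edgeR adjusted p = 0.0434) and Hist4h4 lower at -4.68 (SE 1.71, edgeR adjusted p = 0.0411). Hist4h4 had 1.91, 2.15 and 3.01 CPM in F libraries and 0.113, 0.156 and 0 in 2d-U libraries, with no overlap. The call of Hist1h1b was lost without F replicate 5, without 5d-U replicate 6 and without any 1 of the 2d-U libraries, and those of Hist1h1d and Hist4h4 were both lost without F replicate 4, F replicate 5, 2d-U replicate 1, 2d-U replicate 3 or 5d-U replicate 6, and without the libraries rich in silent-family reads. Hist4h4 was also lost without 2d-U replicate 2 and Hist1h1d without 5d-U replicate 1, while without any 1 of the 2+3d-C libraries Hist1h2ae was called higher too. The median was -0.82 over the 26 genes and -1.63 over all tested genes.

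In 5d-U against F cells, 2 of the 26 tested genes were higher and 0 lower, against 11.6% higher and 8.9% lower of all tested genes. They were Hist1h1b at a log2 fold change of 6.35 (SE 1.4, edgeR adjusted p = 0.00624) and Hist1h2ae at 4.92 (SE 1.11, edgeR adjusted p = 0.00562), and neither was called without 5d-U replicate 6. Without 2+3d-C replicate 4 or 10, which enter the shared estimate of spread, 4 genes were higher, and without 2+3d-C replicate 5 the count was 3. Over all 22635 tested genes 3095, 3299 and 3291 were higher in the same order, against 2629 in the main fit and 1923 without 5d-U replicate 6. Without the libraries rich in silent-family reads 1 was higher, Hist1h1b. Every 5d-U library lay above every F library in 12 of the 26 genes, against 21.4% of all tested genes. The median was 1.37 over the 26 genes and -0.41 over all tested genes. The 6 comparisons share libraries, so their values are not independent of each other.

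Levels of different genes are set side by side here per length, without correction for stretches shared with other genes, whose reads were not counted. The order below therefore holds for counted reads only. Of the 75-base stretches, 100% were unique in Hist1h1b, 72.9% in Hist1h2bc, 93.3% in Hist1h1c, 65.6% in Hist1h2ae, 77.6% in Hist1h4i and 96.3% in Hist1h4d. In RPKM, Hist1h1b was the highest in 5d-U cells at 34.0 ± 38.5, then Hist1h2bc at 32.5 ± 35.7, Hist1h1c at 16.7 ± 11.3, Hist1h2ae at 12.9 ± 11.1, Hist1h4i at 12.8 ± 7.63 and Hist1h4d at 11.1 ± 4.41 (SD, n = 3). These SDs are between libraries in which the genes were measured together, so they do not measure differences between genes. Hist1h2bc lay above Hist1h1c, and Hist1h1c above Hist1h2ae, in each 5d-U library. The other neighbours in this order changed places between libraries. In F cells the order was led by Hist1h1c at 15.5 ± 8.73 and Hist1h2bc at 14.96 ± 11.7 RPKM, with Hist1h1b at 0.407 ± 0.489. In 2+3d-C cells Hist1h2bc stood at 6.65 ± 3.64 and Hist1h1c at 3.84 ± 1.14 RPKM, and Hist1h1b at 0. Of the 26 genes 21 had their highest mean in 5d-U, 4 in F libraries and 1 in 2+3d-C cells, and 19 had their lowest mean in 2+3d-C and 7 in 2d-U cells. The same counts over all tested genes are not given here. Of all 22635, 17850 lay above 0 in 5d-U against 2d-U and 14466 below 0 in 2+3d-C against 5d-U cells.

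Genes with long and short annotated transcripts differed in their order over the groups. The 18 genes with over 1000 bases of exon summed to 92.9, 49.0 and 47.2 CPM in F libraries, 28.5, 19.8 and 22.8 in 2d-U libraries, 70.5, 60.4 and 202 in 5d-U libraries and 17.3, 26.8 and 14.6 in 2+3d-C libraries. The 51 genes of 1000 bases or less summed to 9.80, 4.94 and 5.81 in F libraries, 11.3, 19.0 and 11.3 in 2d-U libraries, 24.6, 29.6 and 115 in 5d-U libraries and 1.63, 9.41 and 4.56 in 2+3d-C libraries. Every F library lay above every 2d-U library for the long genes and below every 2d-U library for the short genes. Long genes supplied 89.0 to 90.8% of the histone level in F libraries and 51.1 to 71.5% in 2d-U libraries. In 2d-U against F cells the fitted values were below 0 in 12 of the 14 tested long genes and above 0 in 9 of the 12 tested short genes, with medians of -1.36 and 1.98. Of all tested genes 15544 were below 0 and 7091 above. In 2+3d-C against 5d-U cells, 8 of 14 long and 6 of 12 short genes were lower. The tested genes were longer than the others, with a median of 1147 against 470 bases.

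**Figure D4:**
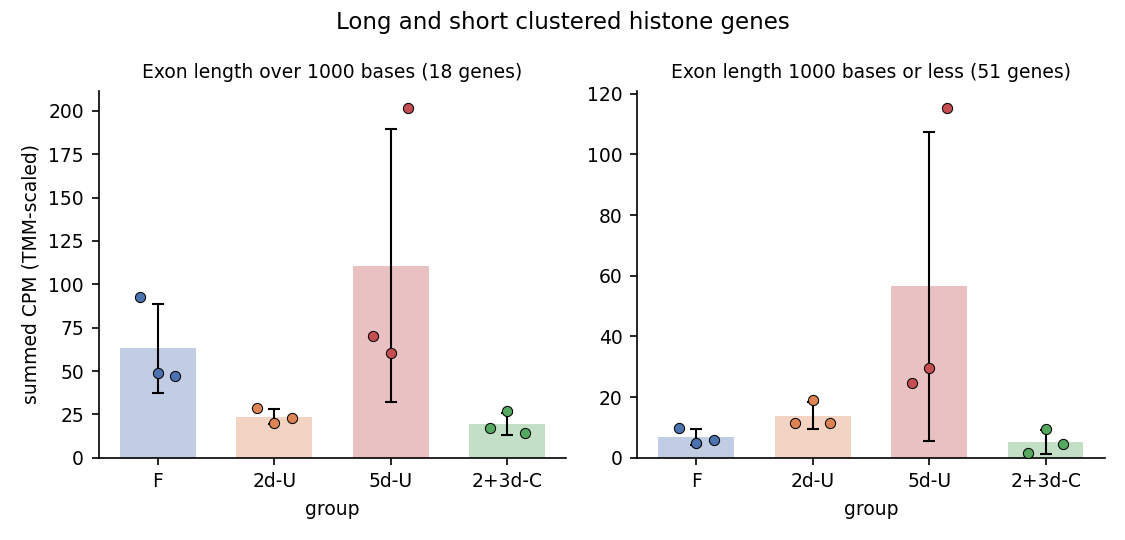
Summed CPM (vertical axes) of the 18 clustered histone genes with over 1000 bases of exon and of the 51 with 1000 bases or less, by group (horizontal axes). Points are libraries, bars are means and whiskers are SD (n = 3, cut at 0). F libraries are above 2d-U libraries on the left, at 47.2 to 92.9 against 19.8 to 28.5 CPM, and below them on the right.

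Replication-independent histone genes lie outside the clusters and give polyadenylated mRNA. Of the 11 listed, 5 were lower in 2+3d-C cells than in 5d-U cells and 0 higher, with a median log2 fold change of -1.41. Of all tested genes 13.4% were lower and 9.14% higher there. Cenpa, the histone H3 variant of centromeres, was lower at -8.45 (SE 1.04, edgeR adjusted p = 9.11e-05), with 1.93, 2.41 and 0.0456 CPM in 2+3d-C against 274, 350 and 868 in 5d-U libraries. H2afz, the variant H2A.Z, was lower at -2.76 (edgeR adjusted p = 0.00501), H1f0, a linker histone of resting and differentiated cells, at -1.93 (edgeR adjusted p = 0.00649), H2afy2 at -6.21 (edgeR adjusted p = 0.0056) and H2afj at -1.51 (edgeR adjusted p = 0.0267). H3f3a and H3f3b, which encode the replacement variant H3.3, gave 0.22 (edgeR adjusted p = 0.803) and 1.05 (edgeR adjusted p = 0.151). In 2d-U against F cells 6 of the 11 were higher and 0 lower, against 10.6% and 33.3% of all tested genes. There 1 clustered gene was higher and 2 were lower. In 5d-U against F cells 8 of the 11 were higher and 0 lower, against 11.6% and 8.9% of all tested genes.

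S-phase genes encode proteins of DNA replication, nucleotide synthesis and the entry into S phase. Of 23, 19 were lower in 2+3d-C cells than in 5d-U cells, 21 lower than in 2d-U cells and 0 higher in either. Of all tested genes 13.4% were lower and 9.14% higher than in 5d-U cells, and 8.63% lower and 16.0% higher than in 2d-U cells. Rrm2, a subunit of ribonucleotide reductase, stood at 28.5, 50.8 and 6.07 CPM in 2+3d-C, 2368, 2854 and 2004 in 5d-U libraries, 2432, 2378 and 2624 in 2d-U libraries and 61.4, 143 and 10.2 in F libraries. Between F and 2d-U cells 21 of the 23 S-phase genes were higher in 2d-U cells, against 10.6% of all tested genes. Their median was 3.63, against -0.82 over the 26 clustered histone genes. In 5d-U against 2d-U cells the median was -0.35 over the 23 genes against 2.29 over the histone genes. Both lists stand on the same libraries, and no test of the difference between them was made.

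The histone chaperones and nucleosome assembly factors included 6 of 19 genes lower and 1 higher in 2+3d-C cells than in 5d-U cells. Of all tested genes 13.4% were lower and 9.14% higher there. Chaf1a, a subunit of the CAF-1 complex that loads H3 and H4 at replication forks, was lower at -5.99 (edgeR adjusted p = 0.000739), and Asf1b, an S-phase chaperone of H3 and H4, at -5.03 (edgeR adjusted p = 0.00295). The genes for histone mRNA transcription and 3′ processing gave 5 of 16 lower and 2 higher, against the same 13.4% and 9.14%. Slbp, which binds the stem-loop shown above, was not called in any of the 6 comparisons and gave 0.44 (edgeR adjusted p = 0.529) in 2+3d-C against 5d-U cells, with 186, 670 and 129 against 239, 208 and 280 CPM. Npat, the transcription coactivator of histone genes in S phase, gave 0.66 (edgeR adjusted p = 0.464). Those lower were Lsm10, a subunit of the U7 particle that cleaves histone precursors, Cpsf2 and Cpsf3 of the cleavage complex, Casp8ap2 and Mblac1. Tut7, a terminal uridyltransferase, was higher by 1.96 and Upf1, a helicase of RNA decay, by 2.44.

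**Figure D5:**
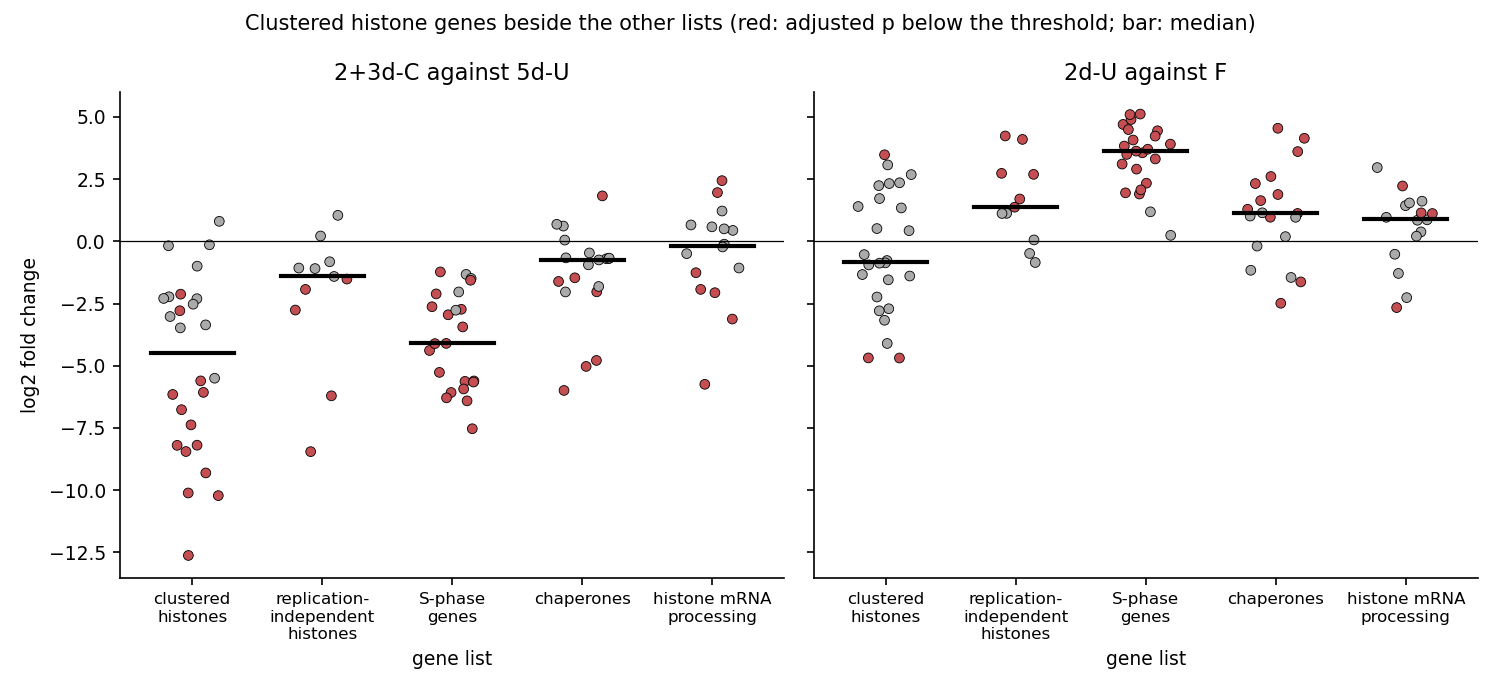
Log2 fold change (vertical axis) of each tested gene in the clustered histone genes and 4 other lists (horizontal axis), in 2+3d-C against 5d-U cells and in 2d-U against F cells. Points are genes, red where the adjusted p was below 0.05, and bars are medians. In the right panel the S-phase median lies at 3.63 and the clustered histone median at -0.82.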

How the data were processed

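RNA was reverse-transcribed with SMART-seq v4, which primes on poly(A), and sequenced as 75-base single-end reads. The deposited files hold raw counts of reads per gene, which the authors made against mm10 with featureCounts v1.6.4 and the GENCODE vM23 annotation in the nf-core/rnaseq pipeline version 1.4.2, without regard to strand and without reads that aligned to several places or overlapped several genes. All 12 count columns were used, grouped by their labels. Per-library totals were 12540745 to 62424851.

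Genes were filtered with filterByExpr by group, scaled by TMM and fitted over all 12 libraries with edgeR 4.0.16 (quasi-likelihood test, R 4.3.3), and p-values were adjusted by the Benjamini-Hochberg method over the 22635 genes tested, with a threshold of 0.05. DESeq2 1.42.0 served as an alternative. The fit was tested on simulated data with 200 genes changed 8-fold in the comparison of 2+3d-C with 5d-U, of which 21% were called (19811 genes passed the filter there). Bounds for genes without reads use a floor of 3 reads per library, and ratios carry exact 95% intervals, both for counting error only. In 6 pairs of samples from different groups with the same replicate number, deviations from the group means correlated at -0.424 to 0.0322. These values show no pairing by number, but with 3 libraries per group they cannot exclude shared sorts. The authors state that every sorted batch was spread at random over the conditions, without saying which libraries came from the same batch.

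The members and gene lists were chosen with earlier results of these data known. In each class the text names the 3 tested genes with the highest mean CPM, the 3 with the smallest p in 2+3d-C against 5d-U and the smallest in each other comparison. Every gene of the replication-independent and mRNA processing lists could be named, and of the chaperone and S-phase lists the 3 highest by CPM and the 3 with the smallest p. Sequences came from GENCODE vM21 transcripts and RefSeq promoters, and 8 genes without a RefSeq promoter entry were left out of the motif counts. Alternatives covered scaling, the filter, subtraction of reads at the density of silent families, the samples fitted, a replicate block and each library left out. The fit without the 3 libraries rich in silent-family reads was added after seeing the data.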

Additional observations from a re-analysis of the deposited data

How the results depend on the processing

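Of the 14 genes lower in 2+3d-C cells than in 5d-U cells, DESeq2 called 12 and the fit without TMM all 14. The count was 9 without a filter on low counts, with a mean of at least 1 CPM (13 genes tested) or in a fit of the compared groups alone, and 6 to 16 with any 1 of the 12 libraries left out, as for all counts here. Against 2d-U cells 7 were lower, with 4 under no filter, the 1 CPM minimum or subtraction of silent-family reads, 2 in the compared groups alone and 3 to 8 with a library left out, while DESeq2 and the fit without a filter called 1 higher and a library left out 0 to 1. Against F cells 2 were lower, with 11 by DESeq2, 4 without TMM or filter, 1 after subtraction, 0 in the compared groups alone or without the libraries rich in silent-family reads, and 0 to 6 with a library left out. In 5d-U against 2d-U cells DESeq2 called 4 higher, the compared groups alone 1 and a library left out 0 to 1. In 2d-U against F cells 2 were higher by DESeq2 or after subtraction, 0 in the compared groups alone and 0 to 2 with a library left out. There 5 were lower by DESeq2, 1 without TMM or with the 1 CPM minimum, 0 after subtraction or without the libraries rich in silent-family reads and 0 to 3 with a library left out. In 5d-U against F cells 4 were higher by DESeq2, after subtraction or in the compared groups alone, 1 without the libraries rich in silent-family reads and 0 to 4 with a library left out. The summed level in 2d-U cells was 46.1 CPM without TMM, 37.6 with it. Its leave-one-out range was 36.5 to 39.3, against 53.5 to 78.3 in F, 92.5 to 206 in 5d-U and 19.0 to 27.6 in 2+3d-C cells. Over all 22635 tested genes the counts with a library left out moved too. In 2+3d-C cells 1648 to 3984 were lower than in 5d-U, 1415 to 2221 than in 2d-U and 226 to 2334 than in F cells. In 5d-U cells 24 to 835 were higher than in 2d-U and 1590 to 3299 than in F cells. In 2d-U against F cells 1275 to 3223 were higher and 3662 to 8563 lower. The cause of these differences was not tested.

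The replicate number was also fitted as a replicate block, though no source says that the numbers pair the samples. With this block 5 genes were lower in 2+3d-C cells than in 5d-U cells, 2 lower than in 2d-U and 4 lower than in F cells. In 2d-U against F cells 0 were lower, and 1 was higher in 5d-U than in F cells. Under the replicate block the log2 fold change from 5d-U to 2+3d-C cells changed sign, without a call, in Hist1h2bc (1.09), Hist1h2bj (0.27), Hist1h3e (0.050), Hist1h3f (2.17), Hist1h3g (2.54), Hist1h4c (-1.27) and Hist4h4 (0.48).

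Elsewhere the sign of that change turned in 4 uncalled genes. Hist1h4c, above 0 otherwise, was at -2.26 without 2+3d-C replicate 10. Hist1h3e ranged from -2.33 to 0.11 with a library left out, above 0 without 5d-U replicate 6. Hist2h2be was at 0.0903 without a filter, 0.0342 after subtraction, 0.0678 without the libraries rich in silent-family reads, and with a library left out between -4.63 and 0.55, above 0 at 0.07 without 5d-U replicate 1, 0.48 without 2+3d-C replicate 5 and 0.55 without 2+3d-C replicate 10. Hist4h4 was at 0.0050 by DESeq2, 0.0889 without a filter, 0.0722 after subtraction, 0.0293 in the compared groups alone, and with a library left out between -0.75 and 0.44, above 0 at 0.34 without 5d-U replicate 6 and 0.44 without 2+3d-C replicate 10. The median change of all tested genes was -1.05, -1.21 without TMM and -0.90 by DESeq2. With 9 to 25 histone genes detected in a 2+3d-C library, a low level there cannot be told from none.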
